A study of Mus musculus with 8 samples.

Results

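The genes described here are the Ifi200 family members, also called PYHIN genes: Ifi203, Ifi204, Ifi205, Ifi207, Ifi208, Ifi209, Ifi211, Ifi213, Mndal and Aim2. They were taken by symbol, and all 10 were among the 21859 genes listed for each of 8 mouse aortas and among the 15077 with enough reads to be tested. The list was chosen by symbol with the fold changes of this genotype comparison in view, and Ifi209 is one of the genes the study labelled, so the size and direction of the members' changes are given as a description. A further 3 genes of the same family, Ifi206, Ifi214 and Ifi202b, were found in the data by their symbols and are described beside the members.

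The aortas came from 4 ApoE-/- and 4 wild-type (WT) mice, all male, 40 weeks old and kept on a normal (chow) diet with no other treatment. ApoE-/- mice lack apolipoprotein E, the ligand by which the liver clears lipoprotein remnants, and develop atherosclerotic plaques in the arterial wall. Whole aorta was used, with 1 sequencing library per mouse, and the study's methods give C57BL/6 as the strain; whether the WT mice were littermates of the ApoE-/- mice is not given in the sources used here. The comparison addresses which transcripts differ in the aorta of atherosclerosis-prone animals.

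The proteins of this family are built from a HIN domain, which binds double-stranded DNA, and in most members a pyrin domain, which binds other pyrin domains. Aim2 senses DNA in the cytosol and assembles an inflammasome with the adaptor ASC, encoded by Pycard. Other members act in or near the nucleus, and Ifi204 has been linked to the STING route that ends in type I interferon. The genes lie side by side on mouse chromosome 1, differ in number between mouse strains, are induced by interferon and are best known from macrophages and other leukocytes.

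The libraries held 18375898 to 21664598 counts on genes in WT and 23240995 to 23940156 in ApoE-/- aortas. Apoe itself was at 14.7 to 36.3 CPM (counts scaled to the library total) in the ApoE-/- libraries and 536 to 857 CPM in WT, so every library carried the genotype of its label. One library, ApoE-/- replicate 1, stood apart: its log2 CPM correlated with those of the other ApoE-/- libraries at 0.849 to 0.903, against 0.951 to 0.971 among the other 3 and 0.897 to 0.946 between it and the WT libraries. Smooth muscle markers such as Acta2 and Myh11 were present in every library, at summed levels of 5199 CPM in ApoE-/- replicate 1 and 11536 to 21594 CPM in the others. Adipocyte and cardiac muscle markers were present in every library too, the latter at 156 to 337 CPM in ApoE-/- and 399 to 675 CPM in WT.

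Transcripts of Ifi209 and Ifi213 were about 3 times more abundant in ApoE-/- than in WT aortas, and the unlisted Ifi206 differed by as much. Ifi208, which lies beside them, was higher in every ApoE-/- library than in every WT library but by a smaller factor. The more abundant members Ifi207, Ifi204 and Ifi205 had higher means in ApoE-/- aortas with ranges that overlapped those of WT, and Mndal and Ifi203 were at nearly the same level in both genotypes. The fitted log2 fold change was above 0 for 10 of 10 members, as it was for 58.0% of all genes tested, and its median over the members was 0.59 against 0.0474 over all genes. Without ApoE-/- replicate 4 the members' median was 0.37 and 9 of the 10 values were above 0, and 9 were so without ApoE-/- replicate 1.

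Ifi209 (ENSMUSG00000043263.13, chr1:173630917-173647928 on the plus strand of GRCm38) encodes a pyrin- and HIN-domain protein whose function is little studied. Its level was 4.42, 4.24, 3.66 and 5.03 CPM in ApoE-/- replicates 1 to 4 and 1.38, 1.59, 1.16 and 1.44 CPM in the WT replicates. The lowest ApoE-/- aorta thus held more than the highest WT aorta. The mean was 4.34 ± 0.57 CPM in ApoE-/- and 1.39 ± 0.18 CPM in WT (SD, n = 4 each), a log2 fold change of 1.64 with a standard error of 0.19. It was the only member past the adjusted threshold of 0.05 in edgeR's quasi-likelihood test with Benjamini-Hochberg adjustment over all genes (adjusted p = 0.0355), against a background of 0.371% of all genes called higher in ApoE-/-. When 1 mouse at a time was left out, its edgeR log2 fold change stayed between 1.56 and 1.71. Its edgeR adjusted p then ranged from 0.00893 to 0.146 and was under 0.05 only without ApoE-/- replicate 1. With these omissions edgeR called 0 to 593 genes in all. DESeq2 and limma-voom, the other models tried, gave Ifi209 adjusted p of 3.50e-09 and 0.0418 with all 8 mice. The DESeq2 call held in 8 of 8 omissions (adjusted p 3.93e-08 to 2.27e-06). An edgeR fit with a term for replicate number gave an adjusted p of 0.114.

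Ifi213 (ENSMUSG00000073491.11, chr1:173566283-173599274, minus strand) is another pyrin- and HIN-domain gene of unclear function. It was at 5.60, 3.37, 3.53 and 2.99 CPM in ApoE-/- and 1.70, 1.22, 0.886 and 1.10 CPM in WT aortas. The groups did not overlap, and ApoE-/- replicate 1 was the highest of the 8. The log2 fold change was 1.65 with a standard error of 0.29, and the edgeR adjusted p of 0.0560 lay just outside the threshold. DESeq2 gave it an adjusted p of 9.67e-05, and by that tool 2 members, Ifi209 and Ifi213, were past the threshold, against 3.12% of all genes called higher. The DESeq2 call of Ifi213 held in 8 of 8 omissions of 1 mouse, whereas edgeR called it only without ApoE-/- replicate 1 (adjusted p = 0.0260).

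Ifi208 (chr1:173673675-173698395, plus strand) was at 2.60, 1.27, 1.18 and 2.34 CPM in ApoE-/- and 1.06, 1.17, 0.831 and 0.718 CPM in WT aortas. Its groups were separated only narrowly, ApoE-/- replicate 3 lying just above WT replicate 2. The log2 fold change of 0.96 had a standard error of 0.33, and the edgeR adjusted p was 0.286. Across the family 4 members, Ifi213, Ifi209, Ifi208 and Ifi211, had no WT library as high as any ApoE-/- library, a pattern that 5.41% of all genes showed.

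**Figure D1:**
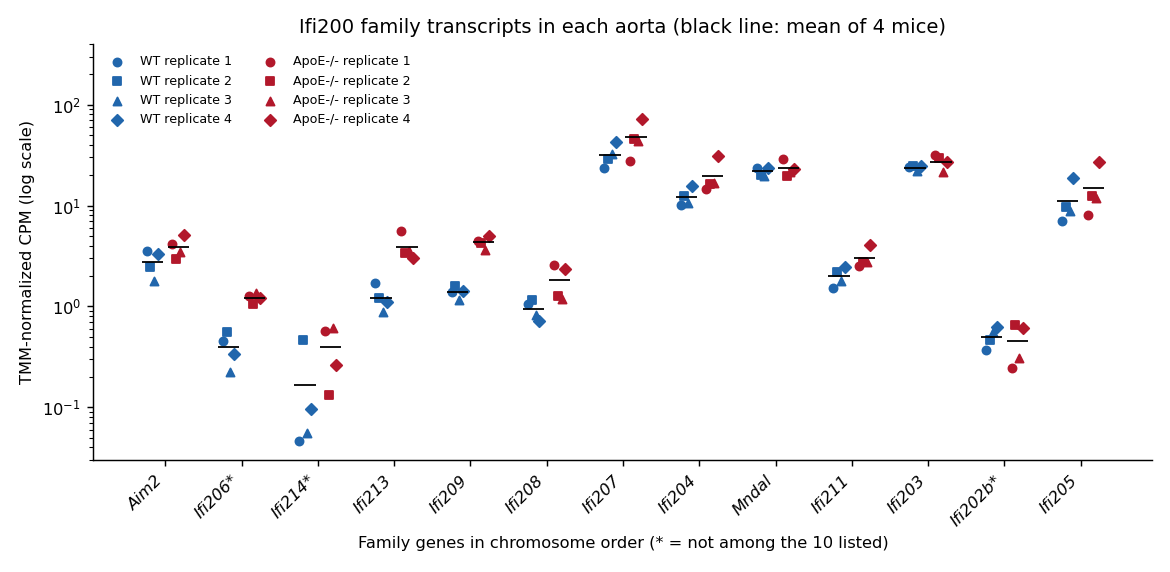
TMM-normalized CPM (log axis) of the 13 family genes found, in the order they lie on chromosome 1, with 1 point per aorta (WT blue, ApoE-/- red, symbol by replicate) and a black line at the mean of 4 mice. The points of Ifi206, Ifi213 and Ifi209 separate by genotype, whereas those of Mndal, Ifi203 and Ifi205 intermingle.

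The 3 unlisted genes are described in chromosome order. Ifi206 (chr1:173468485-173491041, minus strand) was at 1.26, 1.05, 1.35 and 1.22 CPM in ApoE-/- and 0.459, 0.562, 0.222 and 0.335 CPM in WT aortas, from 24 to 31 counts and from 4 to 12 counts per library. All 4 ApoE-/- aortas lay above all 4 WT aortas, with a log2 fold change of 1.60 (SE 0.30), an edgeR adjusted p of 0.0634 and a DESeq2 adjusted p of 0.00598. Leaving out ApoE-/- replicate 3 or WT replicate 4 raised its DESeq2 adjusted p above 0.05, up to 0.0591. In edgeR it was called only without ApoE-/- replicate 1 (adjusted p = 0.0440). Ifi214, the gene between Ifi206 and Ifi213, had only 3 to 14 counts in ApoE-/- and 1 to 10 counts in WT libraries and was too low to test. Ifi202b, which encodes a protein with no pyrin domain that can hold Aim2 in check, was at 0.244 to 0.656 CPM in ApoE-/- and 0.367 to 0.622 CPM in WT aortas, with overlapping groups and a log2 fold change of -0.15 (SE 0.39).

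Aim2 (chr1:173350879-173466040, plus strand), the inflammasome-forming DNA sensor, was at 4.18, 2.93, 3.48 and 5.08 CPM in ApoE-/- and 3.53, 2.43, 1.77 and 3.30 CPM in WT aortas. The groups overlapped, since ApoE-/- replicates 2 and 3 lay below WT replicate 1. Its log2 fold change was 0.50 with a standard error of 0.28, which did not pass the test (edgeR adjusted p = 0.595).

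Ifi207 (chr1:173723427-173741747, minus strand), the most abundant member, was at 27.9, 45.8, 43.8 and 71.8 CPM in ApoE-/- and 23.5, 28.9, 32.2 and 42.2 CPM in WT aortas. ApoE-/- replicate 1 lay inside the WT range and ApoE-/- replicate 4 well above it. Ifi204 (chr1:173747293-173766943, minus strand), linked to STING signalling and to differentiation of myeloid cells, followed the same order within the ApoE-/- group in its extremes, at 14.6, 16.4, 16.7 and 30.7 CPM against 10.1, 12.5, 10.5 and 15.8 CPM in WT. Ifi205 (chr1:174011998-174031810, minus strand), reported to act on Pycard expression in macrophages, was at 8.0, 12.6, 11.8 and 27.3 CPM in ApoE-/- and 6.98, 9.64, 8.75 and 18.7 CPM in WT aortas. In each of these 3 genes the highest value of both genotypes was in replicate 4. The log2 fold changes were 0.58 (SE 0.29) for Ifi207, 0.68 (SE 0.27) for Ifi204 and 0.44 (SE 0.44) for Ifi205, with edgeR adjusted p of 0.540, 0.365 and 0.809. Without ApoE-/- replicate 4 they were 0.30 for Ifi207, 0.38 for Ifi204 and -0.032 for Ifi205. Without ApoE-/- replicate 1 they were 0.76, 0.80 and 0.64, and DESeq2 then called Ifi207 (adjusted p = 0.0429).

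Ifi211 (chr1:173896345-173913046, minus strand) was at 2.52, 2.76, 2.74 and 4.04 CPM in ApoE-/- and 1.51, 2.20, 1.77 and 2.44 CPM in WT aortas. Again replicate 4 was the highest in both groups, which did not overlap, and the log2 fold change of 0.60 with a standard error of 0.24 missed the threshold (edgeR adjusted p = 0.377). Mndal and Ifi203, annotated on the minus strand at chr1:173849126-173942491 and chr1:173920407-173942672, differed least. By these coordinates the span of Mndal takes in Ifi211 and most of Ifi203, and the RefSeq promoter windows of Mndal used below lie inside it. Mndal was at 29.3, 19.7, 21.3 and 23.0 CPM in ApoE-/- and 23.8, 20.2, 19.8 and 23.4 CPM in WT aortas. For Ifi203 the values were 31.5, 29.3, 21.3 and 27.1 CPM against 24.0, 24.7, 22.2 and 24.4 CPM. Their log2 fold changes were 0.10 (SE 0.15) and 0.20 (SE 0.13). Without ApoE-/- replicate 1 they were -0.030 and 0.12, and without ApoE-/- replicate 3 they were 0.14 and 0.30.

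**Figure D2:**
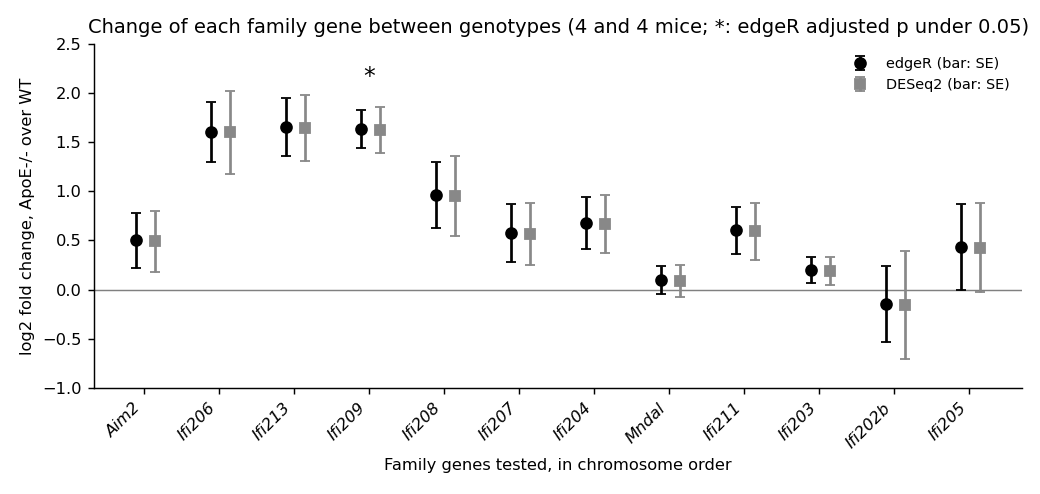
Fitted log2 fold change (ApoE-/- over WT, vertical axis) of the 12 family genes tested, in chromosome order, from edgeR (black circles) and DESeq2 (grey squares) with bars of 1 standard error; the star marks the one gene with an edgeR adjusted p under 0.05. By edgeR, Ifi206, Ifi213 and Ifi209 lie between 1.60 and 1.65, Ifi208 at 0.96 and every other gene below 0.7.

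Read along the chromosome, the genes with the larger changes stood together. Ifi206, Ifi214, Ifi213, Ifi209 and Ifi208 follow each other between Aim2 and Ifi207, and the 7 genes beyond them run from Ifi207 to Ifi205. This division was made after the values were seen and carries no test. The first 5 genes summed to 14.4, 10.1, 10.3 and 11.8 CPM in ApoE-/- and 4.64, 5.01, 3.16 and 3.69 CPM in WT aortas, a ratio of means of 2.83 with no overlap. The 7 genes from Ifi207 to Ifi205 summed to 114, 127, 118 and 185 CPM in ApoE-/- and 90.3, 98.6, 95.8 and 128 CPM in WT aortas, a ratio of means of 1.32 with overlapping groups.

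Many genes of the family share stretches of transcript, and only uniquely placed pairs were counted. A pair lying wholly in stretches that are the same in another gene could yield no count. A pair with a read outside them could still be placed, so the shares below describe single reads. Of the 50-base words in its annotated transcripts, the read length used, Ifi211 shared 72.8% with other genes, chiefly with Ifi205. Ifi209 shared 33.7%, nearly all with Ifi214, and Ifi206 shared 25.6%. The others lay between 0% for Ifi202b and 20.8% for Ifi208, with 15.6% for Ifi213 and 0.628% for Aim2. Pairs lying wholly in the stretch common to Ifi209 and Ifi214 cannot be given to either with certainty. Ifi214 had at most 14 counts in any library, where Ifi209 had 21 to 116. The exons of Mndal and Ifi203 overlap by 37 bases on the same strand.

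**Figure D3:**
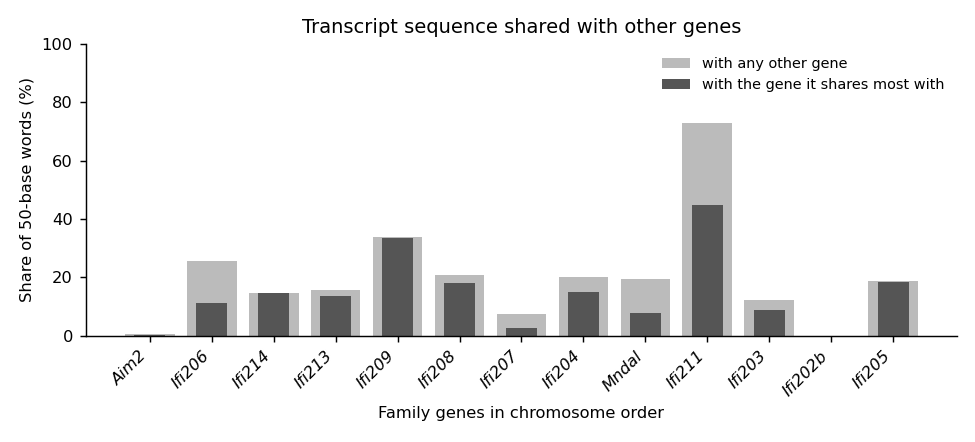
Share (%) of the 50-base words in each family gene's transcripts that also occur in transcripts of any other gene (light bars) and of the single gene it shares most with (dark bars), in chromosome order. Ifi211 stands out at 72.8%, and Ifi209 follows at 33.7%, almost all of it with one partner.

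A short promoter site found in most, though not all, of these genes is shown here because family transcripts are known to be induced by interferon. In RefSeq promoter windows of GRCm38.p6, running from 250 bases before to 50 bases after each start, 12 family genes had a window and Ifi204 had none. The core of the interferon-stimulated response element, GAAA followed after any 2 bases by GAAA on either strand, occurred in 3.45% of all 32544 windows and in those of 9 of the 12 family genes, the exceptions being Aim2, Ifi202b and Ifi209. The gamma-activated site TTCNNNGAA, found in 8.33% of all windows, occurred among family genes only in that of Ifi202b. Aligned on that core, with 10 bases of flank on each side and the site in capitals, the sequences read 5′ to 3′ on each gene's strand as follows.
Ifi206: tgtctctgagGAAATCGAAAgctatgaacc
Ifi214: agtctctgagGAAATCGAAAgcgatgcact
Ifi213: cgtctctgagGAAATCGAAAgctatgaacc
Ifi209: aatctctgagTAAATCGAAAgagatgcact
Ifi208: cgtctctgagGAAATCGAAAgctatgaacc
Ifi207: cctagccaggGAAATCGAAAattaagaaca
Mndal: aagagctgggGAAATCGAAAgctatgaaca
Ifi211: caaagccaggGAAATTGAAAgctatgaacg
Ifi203: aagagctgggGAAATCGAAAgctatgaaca
Ifi205: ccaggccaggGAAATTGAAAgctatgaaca

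The exact letters GAAATCGAAA, chosen after these promoters had been read, occurred in 16 of the 32544 windows, and 7 of those 16 were windows of family genes. Counted from 1 at the 5′ end of these letters, the Ifi211 and Ifi205 sites differ by C6T, which keeps the core, and the Ifi209 site differs by G1T, which does not. The Ifi209 site lies 79 bases before the start, at chr1:173630780-173630789, as does that of Ifi214 at chr1:173536027-173536036, and the 2 windows were identical at 287 of 301 aligned positions. The sites of Ifi213 and Ifi208 begin 73 and 58 bases before the start, at chr1:173599336-173599345 and chr1:173673607-173673616, and share all 30 bases shown. The sites of Ifi206, Ifi207, Mndal, Ifi211 and Ifi203 begin 35 to 41 bases before the start and that of Ifi205 begins 134 bases before it. A further core match on the opposite strand lies 54 bases before the start in another window of Mndal. Ifi205 has one too, 23 bases after the start. The core was thus present in genes that differed widely between genotypes, such as Ifi213, and in genes that hardly did, such as Mndal, and it was not found in the window of Ifi209. These matches describe letters in the reference genome, and binding was not measured.

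Per kilobase of exon, the scale on which genes can be ranked, Ifi207 led the members in WT aortas at 9.27 ± 2.30 CPM per kb, followed by Mndal at 6.01 ± 0.58 CPM per kb (SD, n = 4). Ifi203 at 3.55 ± 0.16, Ifi204 at 3.44 ± 0.73 and Ifi205 at 2.64 ± 1.26 CPM per kb came next, with ranges that overlapped from one to the next. Ifi211 and Aim2, at 1.11 ± 0.23 and 0.789 ± 0.232 CPM per kb, overlapped each other as well. Ifi209 stood below them at 0.392 ± 0.050 CPM per kb, and Ifi208 and Ifi213 were lowest, both at 0.179 CPM per kb. The members with the largest fold changes were thus among the rarest of the family. In ApoE-/- aortas Ifi209 reached 1.22 ± 0.16 CPM per kb, and its share of the family's summed level per kb went from 1.42% ± 0.24 in WT to 3.20% ± 0.49 in ApoE-/- (SD, n = 4). The share of Ifi207 was 32.9% ± 3.9 in WT and 34.7% ± 6.6 in ApoE-/-. The place of Ifi211 depends on how shared sequence is counted: per kb of words found in no other gene it was at 4.21 CPM in WT, above Ifi203 at 3.93 CPM.

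Mice of the same genotype also differed from each other, and the members did not all vary together. Among ApoE-/- aortas replicate 4 was the highest for Aim2, Ifi209, Ifi207, Ifi204, Ifi211 and Ifi205, while replicate 1 was the highest for Ifi213, Ifi208, Mndal and Ifi203 and the lowest for Ifi207, Ifi204, Ifi211 and Ifi205. After subtraction of the genotype means, the 6 pairs among Ifi207, Ifi204, Ifi211 and Ifi205 had a Pearson r of 0.85 to 0.96 and a Spearman rho of 0.76 to 0.98 over the 8 aortas, and an r of 0.74 to 0.93 without the 2 aortas farthest from the median. These 4 genes share transcript sequence, and the pairs were singled out after their values were seen. The 5 genes that followed the mean of the 10 members most closely within genotypes, out of all genes tested, were Pes1, Eif1a, Derl1, Npc2 and Siglech, with an r of 0.97 to 0.98 over 8 aortas and of 0.84 to 0.94 without the 2 farthest. The values of r have no p here, since 8 points and a search over all genes give high values readily.

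Macrophages are a main cell of the plaque, and their markers were higher in ApoE-/- aortas. The 15 macrophage markers examined, among them Cd68, Adgre1 and Itgam, all had log2 fold changes above 0, with a median of 1.55; 13 did not overlap between genotypes and 2, Fcgr1 and Ptprc, passed the edgeR threshold, against 5.41% and 0.371% of all genes. DESeq2 called 10 of the 15 higher, among them Cd68, Adgre1 and Itgam, against 3.12% of all genes. Their summed level was 701, 1219, 1443 and 2660 CPM in ApoE-/- replicates 1 to 4 and 550 to 664 CPM in WT. Among ApoE-/- aortas the macrophage sum was thus lowest in replicate 1, where Ifi207, Ifi204, Ifi211 and Ifi205 were lowest and Ifi213 was highest, and highest in replicate 4. B cell markers summed to 11.4 to 28.5 CPM in ApoE-/- and 4.71 to 7.76 CPM in WT aortas, again without overlap, and the 7 T cell markers found to 5.07 to 11.8 and 3.16 to 5.74 CPM. Set against the macrophage sum, the 5 genes from Ifi206 to Ifi208 came to 2.06%, 0.825%, 0.715% and 0.446% in ApoE-/- and 0.572% to 0.907% in WT aortas, so the separation by genotype seen in their summed CPM was not seen in this ratio. The 10 listed members came to 18.6%, 11.3%, 8.98% and 7.5% of the macrophage sum in ApoE-/- replicates 1 to 4 and 14.7% to 20.7% in WT aortas, and the 7 genes from Ifi207 to Ifi205 to 6.94% to 16.3% and 13.6% to 19.8%, so that in 3 of the 4 ApoE-/- aortas each of these was a smaller share of that sum than in any WT aorta. Within genotypes, over the 8 aortas, other cell types varied along with some of these genes. The mean of the endothelial markers had an r of 0.75 to 0.85 with Ifi207, Ifi204, Ifi211 and Ifi205, and that of the fibroblast markers 0.57 to 0.82. With Ifi213 these were -0.65 and -0.75. T cell markers had an r of 0.53 to 0.77 with Ifi206, Ifi213, Ifi209 and Ifi208, and of 0.88 with Aim2. For cardiac muscle markers it was 0.79 with Ifi213 and 0.88 with Mndal. The 8 endothelial markers, among them Cdh5 and Kdr, had 0 log2 fold changes above 0, against 58.0% of all genes. DESeq2 called Cdh5 and Kdr lower, against 255 of the 15077 genes tested. The summed level of the 8 was 1638, 1941, 1967 and 2582 CPM in ApoE-/- and 2360 to 2872 CPM in WT aortas. Within ApoE-/- it too was lowest in replicate 1 and highest in replicate 4. The 7 fibroblast markers all had log2 fold changes above 0, and DESeq2 called Col1a1 and Lum higher. Their sums were 3008, 5627, 8135 and 7872 CPM in ApoE-/- and 3512 to 3815 CPM in WT aortas. The 8 cardiac muscle markers had 0 log2 fold changes above 0, with a median of -2.84, and DESeq2 called 5 of them lower. In whole tissue, more cells of a type and more RNA per cell cannot be told apart, and the part of cell composition in the changes of the family was not tested.

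**Figure D4:**
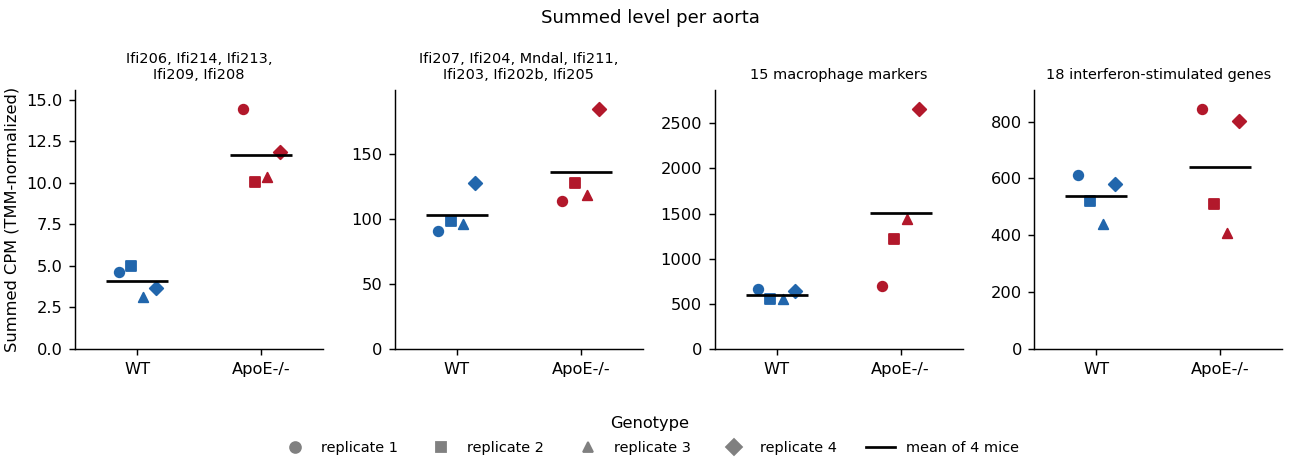
Summed TMM-normalized CPM (linear axes from 0) in each WT (blue) and ApoE-/- (red) aorta of 2 runs of neighbouring family genes, 15 macrophage markers and 18 interferon-stimulated genes, with a black line at the mean of 4 mice. The first run lies at 3.16 to 5.01 in WT and 10.1 to 14.4 in ApoE-/-, and the order of the ApoE-/- replicates in it differs from that in the macrophage sum.

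Of the other genes of DNA sensing, 22 were looked for, from sensors and the cGAS-STING route to the nucleases that remove DNA. The 20 tested included no gene past the edgeR threshold in either direction, 6 at an unadjusted p under 0.05 and 2 past the threshold in DESeq2, with 14 log2 fold changes above 0 and a median of 0.22. Over all genes, the shares in either direction were 0.464% by edgeR, 11.4% unadjusted and 4.81% by DESeq2. Tlr9, the endosomal sensor of unmethylated DNA, was at 3.43 to 4.63 CPM in ApoE-/- and 1.82 to 2.34 CPM in WT aortas without overlap, and the log2 difference of 0.98 had a standard error of 0.19 (edgeR adjusted p = 0.0660). Zbp1, a sensor of Z-form nucleic acid, was at 3.72 to 8.60 and 1.77 to 3.56 CPM, and Nlrc3, which restrains STING, at 5.68 to 12.5 and 4.55 to 6.15 CPM, with log2 fold changes of 0.98 (SE 0.33) and 0.69 (SE 0.25). The second of the genes called by DESeq2 was Sting1, the adaptor of the route, at 11.4 to 16.9 CPM in ApoE-/- and 6.65 to 10.5 CPM in WT aortas, with a DESeq2 adjusted p of 0.0434 against 0.170 by edgeR. Cgas, which makes the messenger that opens STING, was at 2.13 to 3.89 and 2.80 to 3.65 CPM with overlapping groups. Trex1, a nuclease that removes cytosolic DNA, was listed at 0 in every library. Pairs falling on overlapping genes were set aside as ambiguous, and whether this affected Trex1 was not examined.

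Downstream of Aim2, none of 7 inflammasome genes was past the edgeR threshold, 2 had an unadjusted p under 0.05 and 1, Il1b, was called by DESeq2, against 0.464%, 11.4% and 4.81% of all genes, and 5.41% of all genes were higher in ApoE-/- without overlap. Il1b, the cytokine that the inflammasome matures, was at 3.08, 2.06, 1.92 and 3.04 CPM in ApoE-/- and 1.24, 0.749, 0.499 and 0.479 CPM in WT aortas. Its groups did not overlap, and the log2 difference was 1.75 with a standard error of 0.36 (edgeR adjusted p = 0.0753, DESeq2 adjusted p = 0.00114). Casp4, the caspase that senses lipopolysaccharide, was at 20.7 to 53.8 and 17.3 to 23.1 CPM and Il18, the second cytokine of the route, at 1.31 to 3.45 and 0.665 to 2.20 CPM, with log2 fold changes of 0.64 (SE 0.30) and 0.41 (SE 0.44). Pycard, the adaptor that Aim2 binds, was at 14.5 to 16.6 CPM in ApoE-/- and 11.4 to 14.1 CPM in WT aortas, which did not overlap, with a log2 fold change of 0.28 (SE 0.11) and an edgeR adjusted p of 0.363. Casp1, the protease of the complex, was at 9.32 to 18.4 CPM in ApoE-/- and 9.81 to 11.8 CPM in WT aortas, within overlapping ranges.

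Type I and type II interferon act through paired receptor chains, JAK kinases and STAT factors that bind the promoters of their target genes. Of 12 genes of interferon receptor signalling none passed the edgeR threshold, 3 had an unadjusted p under 0.05 and 2, Irf8 and Ifngr2, were called by DESeq2. Irf8, a transcription factor of the myeloid lineage, was at 13.6 to 22.4 CPM in ApoE-/- and 7.04 to 9.55 CPM in WT aortas, a log2 fold change of 1.10 (SE 0.19) with an edgeR adjusted p of 0.0526. Ifngr2, a chain of the interferon gamma receptor, had a log2 fold change of 0.50 (SE 0.13) and Stat2, which carries the type I signal, one of 0.32 (SE 0.20). Of the 18 interferon-stimulated genes tested none passed by edgeR, 2 had an unadjusted p under 0.05 and 2, Oas1a and Oas2, were called by DESeq2, with 16 log2 fold changes above 0 and a median of 0.29. Without ApoE-/- replicate 1, 11 of the 18 were above 0 and the median was 0.047, while it was 0.44 without ApoE-/- replicate 2 and also without WT replicate 2. Over all genes 11.4% had an unadjusted p under 0.05, 4.81% were called by DESeq2 and 58.0% had a log2 fold change above 0. Oas1a and Oas2, which make the activator of RNase L, had log2 fold changes of 1.12 (SE 0.27) and 0.89 (SE 0.20) with no overlap between genotypes. Oasl2, a relative of theirs, was at 60.5 CPM in ApoE-/- replicate 1 and 11.9 to 23.3 CPM in all other aortas. Relative to the summed interferon-stimulated genes, the 5 genes from Ifi206 to Ifi208 came to 1.47% to 2.52% in ApoE-/- and 0.636% to 0.963% in WT aortas, which did not overlap, but this group was formed after its separation by genotype had been seen. The same ratio overlapped for the 10 listed members, at 15.5% to 31.6% and 15.9% to 23.0%, and for the 7 genes from Ifi207 to Ifi205, at 13.5% to 28.8% and 14.7% to 22.0%.

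Beyond the ends of the cluster, 14 of the 39 genes listed within 1 Mb were abundant enough to test, and none of the 14 passed the adjusted threshold in edgeR, nor any of the 12 for which DESeq2 gave an adjusted p. At an unadjusted p under 0.05 were 3, Slamf8, Slamf9 and Tagln2, against 11.4% of all genes. Of the 14, 11 had a log2 fold change above 0, with a median of 0.50 against 0.0474 over all genes. Both values depended on ApoE-/- replicate 1, without which 8 were above 0 and the median was 0.10 against 0.0046 over all genes. Slamf8, a receptor of myeloid cells, was at 1.14 to 1.61 CPM in ApoE-/- and 0.191 to 1.06 CPM in WT aortas, and Tagln2, an actin-binding protein, at 128 to 203 and 97.5 to 118 CPM, both without overlap, as 5.41% of all genes were. The nearest tested genes before Aim2 were Cadm3, Ackr1 and Fcer1a, with log2 fold changes of 0.84 (SE 0.69), 0.37 (SE 0.54) and 0.75 (SE 0.73). After Ifi205, Fmn2, which encodes an actin-nucleating formin, was at 12.3, 0.743, 1.48 and 0.738 CPM in ApoE-/- and 3.26, 4.68, 2.22 and 3.73 CPM in WT aortas. Its log2 fold change of 0.13 (SE 0.91) rested on ApoE-/- replicate 1, the other 3 ApoE-/- aortas lying below every WT aorta, and without that library edgeR called the gene lower in ApoE-/-. In Cadm3, a cell adhesion gene, ApoE-/- replicate 1 was at 196 CPM and the other aortas at 23.2 to 50.9 CPM.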

How the data were processed

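RNA from whole aortas was made by the study into ribosome-depleted, stranded total RNA libraries and sequenced as 50-base pairs on an Illumina HiSeq. The submitters' processing notes name TopHat2, HTSeq and the builds GRCm38 and mm10; the annotation is not given in the sources used here. The deposited values are counts of read pairs per gene, 1 table per mouse, unnormalized. The 5 closing entries of each table (no gene, 50.1 to 58.0% of pairs; ambiguous, 0.850 to 1.32%; not unique, 11.8 to 14.3%; and 2 others) were left out of library sizes. Coordinates, exon lengths and transcripts came from GENCODE M21 (GRCm38), which held 21817 of 21859 gene identifiers, and promoters from RefSeq.

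Counts were filtered with filterByExpr, TMM-normalized and fitted with edgeR 4.0.16 (robust quasi-likelihood, genotype only), with Benjamini-Hochberg adjustment over all 15077 genes and a threshold of 0.05. DESeq2 1.42.0, limma-voom 3.58.1, other scalings and filters, and omission of each mouse were alternatives. CPM are TMM-normalized. The spread between libraries is that between single mice.

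The members, the gene lists and the rule for naming genes were chosen with earlier results of these data known: all family symbols found, the 3 largest changes of each pathway list and any past the threshold, the 3 nearest tested neighbours on each side, and the 5 genes most alike. Some neighbours that the rule names are not reported here. Genes named because DESeq2 called them, or as familiar members of a route (Cgas, Casp1, Pycard, Trex1), and Slamf8, Slamf9 and Tagln2, were chosen after their values were seen.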

Additional observations from a re-analysis of the deposited data

Results flagged for a closer look

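A single library far from the other 3 of its group was looked for with Dixon's test in 58 groups of 4 libraries, of which chance would flag about 5%, and 8 were found. ApoE-/- replicate 4 was far above the others of its genotype for Ifi204 (gap over range 0.867; 30.7 CPM against 14.6 to 16.7), Ifi211 (0.843; 4.04 CPM against 2.52 to 2.76), the sum of the 10 members (0.874; 199 CPM against 130 to 138) and the sum of all 13 family genes (0.880; 202 CPM against 132 to 140.2). These 4 values are not separate findings, since the sums contain the genes. The same library was far below the others for the cardiac muscle markers (0.969; 156 CPM against 331 to 337). WT replicate 2 was far above the other WT aortas for Ifi214 (0.882), at 0.468 CPM against 0.0459 to 0.0957. ApoE-/- replicate 1 was far below for the summed DNA sensing genes (0.859; 559 CPM against 617 to 627), and WT replicate 3 for the T cell markers (0.953; 3.16 CPM against 5.62 to 5.74).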

How the results depend on the processing

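Members past the threshold numbered 1 in edgeR, 2 in DESeq2 and 0 to 2 when each mouse was left out of edgeR, and genes past it in all numbered 70, 725 and 0 to 593, with 29 in limma-voom. ApoE-/- replicate 1 decided the upper ends: without it edgeR called 593 genes, among them Ifi209, Ifi213, the unlisted Ifi206, Irf8 and Ifngr2 as higher and the neighbour Fmn2 as lower in ApoE-/-. Omission of each mouse from DESeq2, chosen after seeing the data, gave 2 to 3 members and 433 to 1543 genes. DESeq2 called 2 DNA sensing genes, 1 inflammasome gene, 2 interferon receptor genes and 2 interferon-stimulated genes, and leaving out mice in edgeR gave 0 to 2 interferon receptor genes and 0 to 1 neighbours. Over all omissions of a mouse the log2 fold change ran from -0.039 (DESeq2; edgeR -0.032) to 0.82 for Ifi205, turning without ApoE-/- replicate 4, from -0.035 (edgeR -0.030) to 0.17 for Mndal and from -0.40 (edgeR -0.38) to 0.060 (DESeq2 0.057) for Ifi202b, both turning without ApoE-/- replicate 1. The causes were not tested. Replicate numbers are shared by both genotypes, and the labels do not say whether they pair the aortas. Over all genes the same-number correlations of deviations were 0.06, -0.45, 0.32 and 0.16. Those of different numbers ran from -0.67 to 0.67, so these values cannot decide it. With the replicate block 2 genes and 0 members were past the threshold, while 7 members, against 5 without it, had an unadjusted p under 0.05. With the block the standard error was 0.12 for Ifi207, 0.14 for Ifi204 and 0.12 for Ifi205, against 0.29, 0.27 and 0.44. For Ifi208 and Ifi209 it was 0.35 and 0.20, against 0.33 and 0.19. Other scalings and filters left the count of members at 1. Genes with counts as low as those of Ifi214 could not be compared at this depth.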
